A study of Mus musculus with 9 samples.

Results

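Of the 66066 PPARγ peaks counted in interscapular brown adipose tissue (iBAT) of the mouse, 748 spanned 5 kb or more and are called broad peaks here. They were chosen by width alone, the end minus the start of the deposited peak interval plus 1, and made up 1.13% of all peaks. The remaining 65318 are called narrower peaks. PPARγ chromatin immunoprecipitation (ChIP) sequencing was performed on tissue of male C57BL/6J mice, 10 weeks old, which were wild type, fed chow and housed at 22 °C in a cycle with 12 h of light. Time is given as Zeitgeber time (ZT), with lights on at ZT0. The labels state that tissue of 8 mice, 250 to 350 mg in all, was pooled, and 1 library was made every 3 h from ZT0 to ZT21 (8 libraries) with 8 µg of PPARγ antibody. The mice of the pools shared strain, sex, age and housing, and the labels of the groups differ only in the time of collection. Each time point is a single pool and library, so differences between pools or preparations cannot be separated from time. The spread between mice cannot be estimated. An input library of ZT12 is labelled and was not analysed here.

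PPARγ is the nuclear receptor that drives adipocyte differentiation and, in mature fat cells, keeps genes of lipid storage, lipid uptake and lipolysis active. Together with its partner, the retinoid X receptor, it sits on direct repeats of a hexamer spaced by a single base (DR1). A narrow ChIP peak usually covers a single bound element. A broad interval can be a stretch with reads above background over many nucleosomes, as seen where enhancers crowd around genes of cell identity. In brown fat, such genes include *Ucp1*, whose protein uncouples respiration, and the lipases that supply it with fatty acids. Receptors, enzymes and clock factors that follow the light-dark cycle are among the known targets of PPARγ.

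The libraries held between 29.6 and 34.3 M reads in peaks (M for mega, as in Mb). Broad peaks took 9.94% (ZT18) to 11.2% (ZT6) of these reads, 10.6% over all libraries, on 5.15 Mb of sequence. Values below are normalized counts, the reads in a peak divided by the library's effective size (its total multiplied by a TMM factor from edgeR) and brought to the mean library total. The median count of a broad peak in a library was 3761, with a 95% Wilson interval of 3643 to 3883 that covers counting error only. Reads over a peak are counted in a whole tissue, so a change in binding per cell and a change in the share of cells of a type cannot be told apart.

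The widest broad peak covered 20225 bases, the narrowest 5002 and the median 6160.5, and 70 covered 10 kb or more. The limit of 5000 bases cuts through a continuous range of widths. The members just inside it were the *Bet1l* peak of 5002 bases with a mean normalized count of 3474 and the *Timp3* and *Nfia* peaks of 5004 bases with means of 4204 and 3055. The peaks just outside it were those nearest to *Gprc5b* (4994 bases, mean 4316), *H2-Q10* (4993 bases, mean 791) and *Ces1e* (4992 bases, mean 3650). Broad peaks were present on every autosome and on the X chromosome. The median density of reads was 589 normalized counts per 1000 bases in broad peaks and 267 in narrower peaks, 2.21 times higher. Density rose with width mainly below the limit, since its median was 180 in peaks under 500 bases, 559 in those of 4 to 5 kb, 582 in those of 5 to 6 kb and 621 in those of 10 kb or more. Among the 746 broad peaks on nuclear chromosomes, width and density were almost unrelated (Spearman's rho across peaks 0.02, with peaks that share the same 8 libraries).

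**Figure D1:**
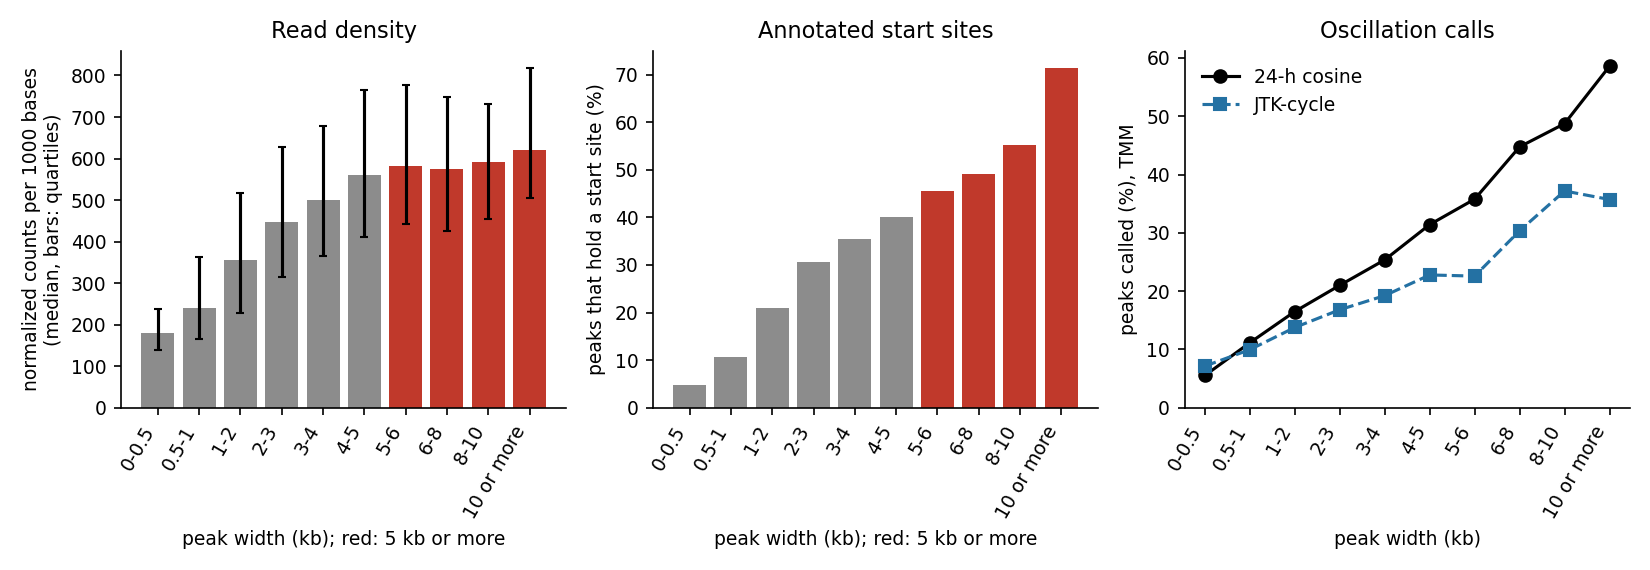
Read density, start sites and oscillation calls by peak width in kb, with peaks of mitochondrial DNA left out. Bars in the left panel give the median and quartiles of normalized counts per 1000 bases, bars in the middle panel the percentage of peaks that hold a curated RefSeq start site, and lines in the right panel the percentage of peaks called with TMM normalization. Density levels off at 559 to 621 from 4 kb upwards. The share with a start site goes on rising, to 71.4% in peaks of 10 kb or more. With TMM, so does the share called by the 24-h cosine, to 58.6%. From 4 kb upwards, that rise in cosine calls was not seen with cyclic loess, a scaling described below and not drawn here.

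DR1 elements are shown for 6 broad peaks because they are the sites that PPARγ is known to recognise and because these peaks were among the densest, or the highest of their gene list, on nuclear chromosomes. The element searched was AGGTCANAGGTCA, on both strands, with at most 1 mismatch among its 12 fixed bases, and no other motif was searched. Each line gives the element in capitals with 24 flanking bases on either side, read 5′ to 3′ on the strand that holds it, from the RefSeq sequence of GRCm38 (mm10), and none of the windows overlaps an exon. The elements lie at chr3:96577495-96577507 (plus strand) in the peak nearest to *Gm15441*, chr11:94134268-94134280 (minus strand) in the peak over the start of *B230206L02Rik*, chr2:167692070-167692082 (plus strand) in the peak over the start of *A530013C23Rik*, chr15:99716571-99716583 (minus strand) at *Gpd1*, chr7:141453627-141453639 (minus strand) at *Pnpla2* and chr7:97419758-97419770 (minus strand) at *Thrsp*.
Gm15441: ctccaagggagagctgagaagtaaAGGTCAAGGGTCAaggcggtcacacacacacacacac
B230206L02Rik: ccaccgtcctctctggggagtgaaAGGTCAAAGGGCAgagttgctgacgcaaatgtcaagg
A530013C23Rik: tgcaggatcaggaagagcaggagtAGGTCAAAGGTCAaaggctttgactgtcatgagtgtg
Gpd1: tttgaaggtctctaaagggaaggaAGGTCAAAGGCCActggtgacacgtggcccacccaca
Pnpla2: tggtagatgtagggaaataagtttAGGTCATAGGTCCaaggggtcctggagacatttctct
Thrsp: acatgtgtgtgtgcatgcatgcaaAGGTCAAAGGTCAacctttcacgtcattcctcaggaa

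The elements of *A530013C23Rik* and *Thrsp* had 0 mismatches. Counted from 1 at the 5′ end of the element, the others differed from the consensus by A8G (*Gm15441*), T11G (*B230206L02Rik*), T11C (*Gpd1*) and A13C (*Pnpla2*), all in the second hexamer. An element with at most 1 mismatch was found in 154 of the 746 nuclear broad peaks (20.6%) and in 4.81% of narrower peaks, and a perfect element in 19 (2.55%) and 0.583%. Per length the order was the other way round, with 3.43 elements per 100 kb of broad peak and 4.68 per 100 kb of narrower peak. A total of 592 nuclear broad peaks held no such element, which says only that these letters are absent from the interval.

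Broad peaks lay over genes more often than narrower ones. A curated RefSeq start site was inside 374 of the 746 nuclear broad peaks (50.1%) and inside 15.0% of narrower peaks. Of the broad peaks, 81 (10.9%) held start sites of at least 2 genes, against 2.19% of narrower peaks. A whole gene lay inside 69 broad peaks (9.25%), against 0.367% of narrower peaks. These genes included *Cebpa*, a factor of adipocyte differentiation, *Pnpla2*, the rate-limiting triglyceride lipase, and *Angptl4*, an inhibitor of lipoprotein lipase. Also among them were *Adrb3*, an adrenergic receptor of adipocytes, and *Cox8b*, a subunit of cytochrome c oxidase. By the position of their centre, 514 broad peaks (68.9%) were in introns, 67 (8.98%) in exons and 165 (22.1%) between genes, against 50.1%, 8.87% and 41.0% of narrower peaks. Wider intervals contain more sequence, and part of these differences follows from width itself. In the 1918 narrower peaks whose mean over the libraries reached 2000 normalized counts, which are closer to broad peaks in reads, the share with a start site was 33.0%, the share with a whole gene 2.09% and the share with a DR1 element of at most 1 mismatch 12.7%.

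Broad peaks were also close to other peaks. The median gap to the nearest other peak was 811.5 bases for nuclear broad peaks and 3375 bases for narrower ones, and 409 broad peaks (54.8%) had another peak within 1000 bases, against 24.7%. A median of 12 other peaks was present within 50 kb, against 6. The narrower peaks with a mean of at least 2000 were crowded too, with a median gap of 1334 bases, another peak within 1000 bases for 43.0% and a median of 11 peaks within 50 kb. Another broad peak lay within 50 kb for 310 members (41.6%), against 10.2% of narrower peaks and 24.3% of those with a mean of at least 2000. Runs of broad peaks with gaps of at most 1000 bases numbered 28 and contained 58 members. Those with 3 members were at *Dhrs3*, a retinaldehyde reductase, over 19998 bases (chr4:144890557-144910554), and at *Rgcc* over 16757 bases (chr14:79285232-79301988). Runs of 2 were present at *Ucp1* over 19248 bases (chr8:83282288-83301535), at *Fabp4*, the fatty acid binding protein of adipocytes, over 17123 bases (chr3:10200746-10217868), and at *Adipor2*, a receptor for adiponectin, over 25507 bases (chr6:119394319-119419825).

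The broad peaks were nearest to the start sites of 617 genes, of which 523 had 1 broad peak, 72 had 2 and 22 had 3 or more. *Tns1*, which links integrins to actin, had most, with 6. *Acsl1*, the main acyl-CoA synthetase of adipocytes, *Nfia*, a transcription factor of the brown fat program, and the noncoding RNA gene *Lncppara* had 5 each. *Pparg* itself, *Dhrs3*, *Fam53b* and the microRNA gene *Mir378a* had 4 each, and the peaks of *Mir378a* lay in introns of its host gene *Ppargc1b*, a coactivator of PPARs. Those with 3 each included *Cebpa*, *Ppara*, *Vldlr*, *Adrb1*, *Slc4a4* and *Pank1*.

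The widest member covered 20225 bases over the start of *Prkar2b*, a regulatory subunit of protein kinase A, at chr12:32041766-32061990. Its normalized counts were 7163, 8628, 9292, 8497, 8640, 7620, 6605 and 7378 from ZT0 to ZT21, so all libraries from ZT3 to ZT12 were above all others. The next was the peak of 19007 bases over *Cd36*, the fatty acid translocase (chr5:17828326-17847332), with 8168, 9398, 10239, 8770, 9563, 8341, 8394 and 8577 in the same order of libraries. Its highest library was 1.25 times its lowest. The others among the 10 widest were at *Tns1* (17699 bases), *Phospho1* (17114), *Adipor2* (15699), the noncoding RNA *Neat1* (15685), the hexokinase gene *Hk2* (15633), the repressor *Bcl6* (15552), *Miga2* near *Dolpp1* (15083) and *Cebpa* (14712). Their densities ranged from 394 to 909 normalized counts per 1000 bases, which does not set them apart from the quartiles of all broad peaks (447 and 776).

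The densest members on nuclear chromosomes covered 5027 to 6901 bases. The peak inside the *Polr3gl* gene region nearest to *Gm15441* (chr3:96571359-96578220) had 1981 normalized counts per 1000 bases. Its counts were 12684, 15020, 17869, 15116, 14518, 10836, 10503 and 12183 from ZT0 to ZT21, highest in the middle of the light phase and lowest in the middle of the dark phase. A pair of peaks at *B230206L02Rik*, a gene of unknown function on chromosome 11, followed with 1735 and 1503. Peaks near *Gadd45g* (1430), over *A530013C23Rik* (1389), over *Gpd1* (1375), which makes glycerol 3-phosphate for triglycerides, near *Zeb1* (1357) and over *Cebpb* (1343), an early factor of adipocyte differentiation, completed the nuclear members among the 10 densest. The *Cebpb* and *A530013C23Rik* peaks were neighbours with a gap of 263 bases, and their fitted peak times were 5.67 and 5.70 h.

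The 2 broad peaks of mitochondrial DNA were denser than any nuclear member. The peak of 6605 bases had 15846 normalized counts per 1000 bases and the peak of 5476 bases 14101, and together they took between 4.02% (ZT3) and 6.39% (ZT12) of the reads in broad peaks. The counts of the former were 99438, 82450, 114848, 119436, 131570, 91111, 98493 and 99955 from ZT0 to ZT21, and those of the latter 74106, 61031, 84416, 86908, 96268, 67742, 74109 and 73177. The libraries stood in nearly the same order in both, with ZT12 highest and ZT3 lowest. Reads of mitochondrial DNA follow the number of copies of that genome in the chromatin, which was not measured, and nothing is read from them about PPARγ.

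Oscillation was assessed by JTK-cycle, a rank test against cosines of 21 and 24 h that uses only the order of the libraries and gives a P value adjusted over the combinations of period and phase within a peak, not over peaks. As a measure that uses the sizes of the counts too, a 24-h cosine was fitted to the counts of every peak with edgeR's quasi-likelihood test, with p-values adjusted over all peaks by Benjamini and Hochberg. With no replicates, the departures of the 8 libraries from the cosine served as the spread. JTK-cycle called 209 broad peaks oscillating at an adjusted P under 0.05 (27.9%), against 11.6% of all peaks tested. The cosine was called in 316 broad peaks (42.2%), against 13.4% of all peaks, and 178 members were called by both. The count with a cosine fell to 98 without the ZT18 library, to 166 without ZT6 and to 173 without ZT15, when 4.64%, 6.48% and 5.65% of all peaks were called. With TMM, the share with a cosine was 35.8% in peaks of 5 to 6 kb, 44.7% in those of 6 to 8 kb, 48.7% in those of 8 to 10 kb and 58.6% in those of 10 kb or more. With cyclic loess, a scaling described below, no such rise was seen. In the same bins it gave a light-phase cosine in 5.87%, 6.61%, 1.28% and 5.71%. A dark-phase cosine was then called in 13.2%, 16.7%, 15.4% and 15.7%. With TMM, narrower peaks with a mean of at least 2000 were called about as often as broad peaks, with JTK-cycle in 29.0% and the cosine in 38.95%. The median ratio of fitted peak to fitted trough was 1.23 over all members and 1.34 over those called, against 1.27 over all narrower peaks and 1.73 over the narrower peaks called. In the narrower peaks with a mean of at least 2000 it was nearly that of broad peaks, 1.24 over all and 1.38 over those called.

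With TMM normalization, the fitted peak of 283 of the called broad peaks fell in the light phase, against 7.58% of all peaks tested, and that of 33 in the dark phase, against 5.8% of all peaks tested. The light phase thus held 89.6% of the called broad peaks and 55.4% of the called narrower peaks, but 96.4% of the called narrower peaks with a mean of at least 2000 (720 of 747). Most fitted peaks were between ZT3 and ZT9, with 115 from ZT3 to ZT6 and 144 from ZT6 to ZT9. The ZT6 library was the highest for 298 members (39.8%) and the ZT18 library the lowest for 259 (34.6%), against 17.2% and 10.0% of narrower peaks. In the narrower peaks with a mean of at least 2000 these shares were 47.8% and 26.2%. The summed normalized count of nuclear broad peaks, divided by its mean over the libraries, was 0.966, 1.07, 1.10, 1.05, 1.04, 0.933, 0.899 and 0.951 from ZT0 to ZT21. The libraries from ZT3 to ZT12 were therefore above the other 4, and ZT6 was 1.23 times ZT18. With the mitochondrial peaks included, the ratio was 1.22. The narrower peaks with a mean of at least 2000 had a like course, from 0.907 at ZT15 to 1.11 at ZT6, also a ratio of 1.23.

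This direction depended on how the libraries were scaled. With division by library totals only, the summed count of all broad peaks at ZT6 was 1.13 times that at ZT18. A cosine was called in 227 members (30.3%, against 13.5% of all peaks tested). Of these, 167 were in the light phase, where 4.72% of all peaks tested were called. JTK-cycle then called 181 members (24.2%, against 12.3% of all peaks). With cyclic loess, which aligns the libraries at every level of counts and so removes any shift that strong peaks share, the summed count was highest at ZT15 and lowest at ZT6, with a ratio of 1.07. A cosine was then called in 155 members (20.7%, against 11.1% of all peaks). The 42 of these in the light phase were a share of the members near that of all peaks (5.68%). The other 113 were in the dark phase, as were 3482 of the 65318 narrower peaks. JTK-cycle called 138 members (18.4%, against 11% of all peaks). The light phase held 27.1% of the broad peaks called by the cosine, against 51.6% of the called narrower peaks (3713 light, 3482 dark). In the narrower peaks with a mean of at least 2000 it held 60.5% (196 light, 128 dark). Their summed count was highest at ZT6 and lowest at ZT15 under cyclic loess. On the log2 scale, the median difference between ZT6 and ZT18 over broad peaks was 0.23 with TMM, 0.12 with totals and -0.06 with cyclic loess, while that over all peaks was -0.01, -0.12 and -0.01. Without a spike-in or a replicate, a shift shared by strong peaks in the tissue and one made in the preparation of a library cannot be told apart. Of the 316 members with a cosine under TMM, 85 also had one under cyclic loess, as did 6729 of the 8526 narrower peaks with a cosine and 247 of the 747 with a mean of at least 2000. The 85 were 42 with a light-phase peak in both, all 33 with a dark-phase peak under TMM, which remained in the dark phase, and 10 that passed from the light to the dark phase.

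**Figure D2:**
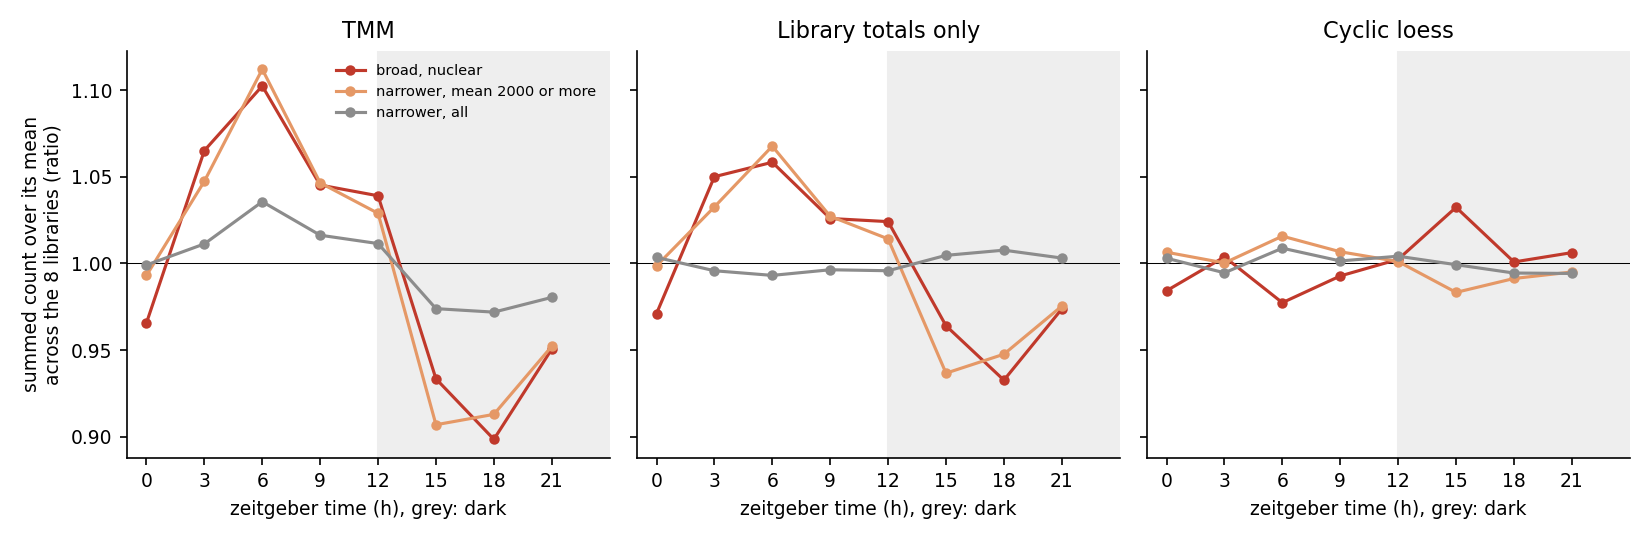
Summed normalized count of nuclear broad peaks, of narrower peaks with a mean of at least 2000 and of all narrower peaks, each divided by its mean over the 8 libraries, against Zeitgeber time in hours under 3 scalings (1 library per time point, dark phase grey). Broad peaks run from 1.10 at ZT6 to 0.899 at ZT18 with TMM and from 1.06 to 0.933 with library totals only, and the order is lost with cyclic loess, where ZT6 is lowest at 0.977.

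**Figure D3:**
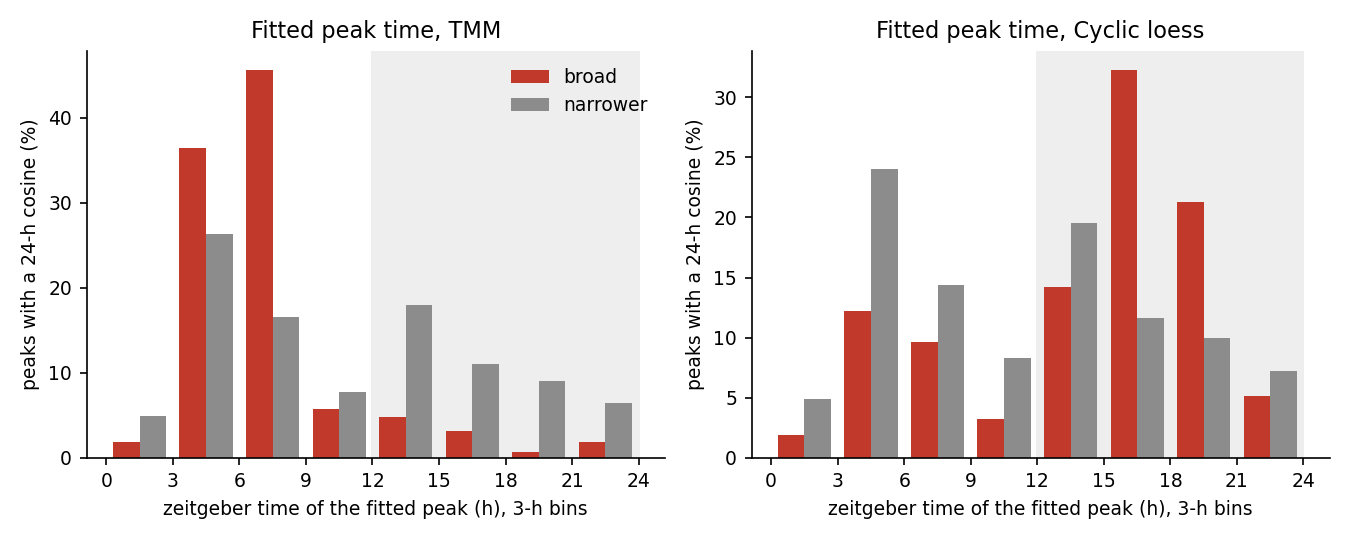
Percentage of the peaks with a 24-h cosine (adjusted p under 0.05) whose fitted peak falls in each 3-h bin, for broad and narrower peaks, with TMM (left) and cyclic loess (right), and with the dark phase in grey. With TMM 36.4% and 45.6% of called broad peaks are in the bins from ZT3 to ZT6 and ZT6 to ZT9, whereas with cyclic loess the fullest bin of broad peaks is ZT15 to ZT18 with 32.3%.

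The largest amplitude among broad peaks was at *Nr1d1*, which encodes the clock repressor REV-ERBα, in a peak of 6498 bases over its start (chr11:98771749-98778246). Its normalized counts were 6936, 9117, 11310, 9225, 6968, 4488, 4667 and 4965 from ZT0 to ZT21. The ZT6 value (Wilson interval 11106 to 11517) was 2.52 times the ZT15 value (4361 to 4619), and every library from ZT3 to ZT9 was above every other. The fitted peak-to-trough ratio was 2.49 with a peak at 5.88 h (edgeR adjusted p = 1.74e-05), and cyclic loess gave 1.95 at 5.77 h (adjusted p = 4.76e-05).

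*Pck1*, which encodes the cytosolic phosphoenolpyruvate carboxykinase that supplies glycerol for triglycerides, had 2 neighbouring broad peaks 347 bases apart. The peak over its start (chr2:173150892-173156399) had 6165, 7936, 9272, 7985, 6870, 4784, 4419 and 5828 normalized counts from ZT0 to ZT21, with a ratio of 1.93 and a fitted peak at 5.91 h (edgeR adjusted p = 0.000281). The peak downstream of it (chr2:173156747-173162883) had 2606, 3206, 3866, 3314, 2975, 2087, 1970 and 2623, with a ratio of 1.76 and a fitted peak at 5.97 h (edgeR adjusted p = 0.00179). The libraries stood in the same order in both apart from ZT0 and ZT21, and both were called by JTK-cycle and under cyclic loess.

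*Ucp1* had a peak of 12049 bases over its start and upstream region (chr8:83282288-83294336) and a peak of 6979 bases over its exon 6 (chr8:83294557-83301535), 220 bases apart. The former had 9260, 12023, 12551, 15905, 9886, 7997, 7465 and 9326 from ZT0 to ZT21. The latter had 1581, 2240, 1970, 1894, 1353, 1101, 1139 and 1751 in the same order. The highest library was thus ZT9 upstream and ZT3 at the end of the gene, with fitted peaks at 6.52 and 4.03 h and ratios of 1.83 and 1.87 (edgeR adjusted p = 0.00268 and 0.00329). The difference between the fitted times was not tested. Under cyclic loess the upstream peak was no longer called by edgeR (adjusted p = 0.0692), whereas the other was (adjusted p = 0.00846).

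The remaining members with the largest amplitudes were an intergenic peak 64637 bases from the start of *Sik1*, a kinase induced by cAMP, an intronic peak of the brown fat noncoding RNA *Lncbate10*, and a peak over the start of *E2f2*, a cell cycle factor. The *Sik1* peak (chr17:31787464-31794871) had 6365, 8669, 8755, 8223, 6515, 5113, 4649 and 5622 normalized counts from ZT0 to ZT21 and a fitted peak at 5.75 h. The *Lncbate10* peak had a low density of 200 per 1000 bases and counts between 608 at ZT18 and 1531 at ZT6. *E2f2* (chr4:136172458-136181257) ran the other way, with 6288, 5431, 3473, 3433, 3101, 4705, 4830 and 5759 from ZT0 to ZT21, so that ZT6 to ZT12 were its lowest libraries. Its ratio was 1.93 with a fitted peak at 22.2 h (edgeR adjusted p = 0.00108), and cyclic loess gave 2.16 at 21.3 h.

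**Figure D4:**
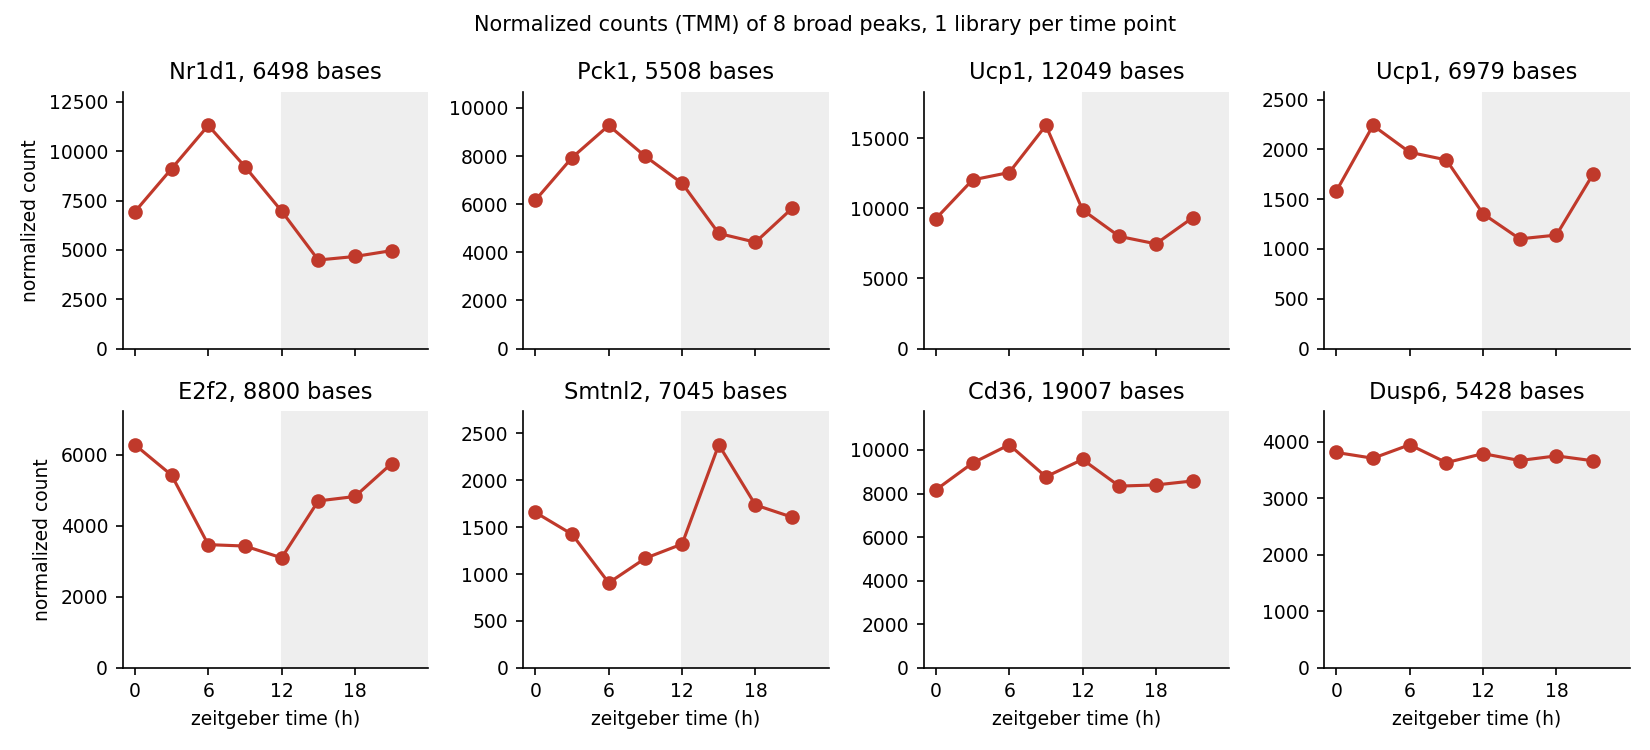
Normalized counts with TMM of 8 broad peaks against Zeitgeber time in hours (1 library per point, dark phase grey, axes from 0). *Nr1d1*, *Pck1* and both *Ucp1* peaks are highest in the light phase, *E2f2* is lowest from ZT6 to ZT12, *Smtnl2* is highest at ZT15, and *Cd36* and *Dusp6* vary by 1.25 and 1.09 times between their highest and lowest library.

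The 33 members with a fitted peak in the dark phase were described after their values were seen. They were a smaller share of the members than dark-phase calls were of all peaks (5.8%). The ZT15 library was the highest for 13 of them and the ZT12 library for 12, and all 33 also had a dark-phase cosine under library totals and under cyclic loess. Both scalings lower ZT6 relative to ZT18 in broad peaks compared with TMM, so this agreement is no separate support for the group. *Dtx4*, an E3 ubiquitin ligase, had 5078, 4695, 3953, 3216, 3081, 3789, 4647 and 5423 normalized counts from ZT0 to ZT21 (fitted peak at 22.6 h, ratio 1.72, edgeR adjusted p = 0.000281), an orderly fall to ZT12 and a rise to ZT21. *Atf5*, a stress-responsive transcription factor, had a similar order of libraries with a ratio of 1.38 and a fitted peak at 23.4 h. *Smtnl2* had 907 at ZT6 and 2379 at ZT15, its lowest and highest libraries, with a fitted peak at 18.2 h. Genes of lipid handling in this group were *Acsl5*, an acyl-CoA synthetase, with 2275 at ZT3 and 3913 at ZT15, *Ces1d*, a carboxylesterase with lipase activity, with 3598 at ZT3 and 5363 at ZT12, and *Plin3*, a lipid droplet coat protein, with 2871 at ZT6 and 3784 at ZT15. Transcription factor genes in the group included *Nfib* (13.1 h), *Zbtb16* (12.5 h), *Zfhx4* and *Zbtb20*. Dark-phase members were sparse in reads, with 17 in the lowest quartile of broad peaks by density, 10 in the next, 5 in the one above and 1 in the highest.

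The steadiest members were at start sites. *D5Ertd579e* varied by 2.50% between libraries (coefficient of variation), from 3144 at ZT0 (Wilson interval 3034 to 3257) to 3409 at ZT3 (3298 to 3522), and even these extremes had intervals that did not overlap. *Dusp6*, a phosphatase of ERK, varied by 2.75%, with 3812, 3710, 3949, 3632, 3792, 3669, 3752 and 3665 normalized counts from ZT0 to ZT21. *Phlpp2*, *Zcchc2* and *Zbtb7a* varied by 2.86%, 3.17% and 3.28%. None of these 5 had a cosine under TMM, library totals or cyclic loess, but JTK-cycle called *Dusp6*, *Phlpp2* and *Zcchc2* under cyclic loess. The median coefficient of variation was 9.75% over broad peaks, 14.3% over narrower ones and 9.90% over the narrower ones with a mean of at least 2000. At the other end of the called members, the smallest fitted ratios were 1.20 at *Dbi*, the acyl-CoA binding protein, 1.21 at *Mir1903* inside *Nrp1* and at a *Dhrs3* peak, and 1.22 at *Nt5c2* and at *Palmd* near *4930455H04Rik*, and none of these had a cosine under library totals or cyclic loess.

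Members with a start site and those without were compared in CpG content and in calls. The 374 with a start site had a median CpG observed-to-expected ratio of 0.381 and the 372 nuclear members without one 0.205. The cosine was called in 37.7% of the former and 47.0% of the latter, with a median ratio of 1.20 and 1.26 over all of them. Cyclic loess turned this order round, with a cosine in 23.0% and 18.0%, and JTK-cycle under TMM called 27.0% and 29.0%. In the quartile of broad peaks with the highest CpG ratio, 25.1% had a cosine, against 46.0% to 49.2% in the other quartiles, but under cyclic loess it was 23.0% against 17.1% to 24.1%. Calls also followed density, with 21.9%, 26.7%, 46.5% and 73.8% of the quartiles from lowest to highest under TMM, of which 24, 40, 82 and 137 members were in the light phase. Under cyclic loess this order was reversed, with 28.3%, 21.4%, 17.6% and 15.5%. Across the nuclear members, Spearman's rho between density and fitted ratio was 0.28 and that between CpG ratio and fitted ratio -0.20. The part of density in the calls was not tested.

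The gene lists of adipocyte functions, assigned by the nearest start site, held 171 gene entries, of which 166 had a peak and 72 a broad peak, with 103 broad peaks in all. The calls below were counted among broad peaks only. Over all broad peaks, 42.2% had a cosine under TMM, 20.7% had one under cyclic loess and 27.9% were called by JTK-cycle under TMM. Shares over all peaks are those given above. Of the 8 genes listed as brown adipocyte markers, 7 had a peak and 4 a broad peak, namely *Ucp1*, *Cidea*, *Cox8b* and *Ppargc1a*. The 23 markers of endothelial cells, macrophages, skeletal muscle and hepatocytes had 0 broad peaks, and 15 of them had 89 narrower peaks nearest to their start. Since broad peaks are 1.13% of all peaks, a count of 0 among 89 is near that background.

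Lipid droplet and lipolysis genes had the largest share of broad peaks, with 14 of the 87 peaks near them (16.1%), at 13 of 22 genes. The cosine was called in 12 of these 14 under TMM, 10 of them in the light phase, and JTK-cycle in 7, but cyclic loess called only 2, both in the dark phase. The hormone-sensitive lipase gene *Lipe* (chr7:25383420-25396925) had the highest mean of the nuclear members, with 15071, 16245, 19034, 16241, 15616, 12140, 12356 and 13597 normalized counts from ZT0 to ZT21. The libraries of ZT15 to ZT21 were below all others, with a ratio of 1.47 and a fitted peak at 5.79 h (edgeR adjusted p = 0.00202 with TMM and 0.365 with cyclic loess). *Pnpla2*, whose whole gene and DR1 element above lie in its peak (chr7:141450753-141462885), had 12616, 14014, 16599, 14333, 14438, 11244, 10969 and 12477, with a ratio of 1.40. *Plin4*, another droplet coat protein, had 9515, 11106, 11669, 11005, 10030, 7974, 7730 and 8798, with a ratio of 1.49. All of these were lowest at ZT15 or ZT18. *Plin1*, which coats the lipid droplet and restrains lipolysis, had 5998 at ZT18 and 8868 at ZT6. The *Cidea* peak, 13762 bases from the start of this gene of lipid droplet growth and inside an intron of *B430212C06Rik*, had 8253 at ZT18 and 12021 at ZT6.

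Genes of lipoprotein lipase, fatty acid uptake, binding and activation had 17 broad peaks at 9 of 19 genes. The cosine was called in 11 under TMM, 10 in the light phase, and in 3 under cyclic loess, 2 of them in the dark phase. *Angptl4* (chr17:33772505-33785724) had 11586, 13094, 15204, 12889, 11900, 9325, 10278 and 11378 normalized counts from ZT0 to ZT21, with a ratio of 1.44 and a fitted peak at 5.34 h (edgeR adjusted p = 0.00483 with TMM and 0.275 with cyclic loess). The broad peak of *Lpl*, the lipase it inhibits, had 6230 at ZT15 and 7871 at ZT6 and was not called by the cosine (edgeR adjusted p = 0.106). Nor was that of *Cd36* (0.154 by the same test). Other peaks near *Lpl* were not examined here. The paper reports oscillating PPARγ binding by JTK-cycle at several sites annotated to *Lpl*. All 5 peaks of *Acsl1* had a cosine with TMM, with ratios of 1.28 to 1.47 and fitted peaks between 5.74 and 8.59 h, and 1 of them under cyclic loess. The 2 peaks of *Fabp4* had fitted peaks at 5.54 and 6.01 h.

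Triglyceride synthesis and glycerol genes had 13 broad peaks at 10 of 17 genes. Cosines were called in 11 with TMM and in 4 with cyclic loess, all of them in the light phase under both, and JTK-cycle called 10. The 4 under cyclic loess were both peaks of *Pck1*, the peak of *Pdk4*, a brake on pyruvate dehydrogenase, and a peak in *Gpat4*, a glycerol-phosphate acyltransferase. *Pdk4* (chr6:5487743-5499871) had 8494, 10127, 12360, 10110, 8812, 6466, 6557 and 7796 normalized counts from ZT0 to ZT21, a ratio of 1.77 and a fitted peak at 5.67 h (edgeR adjusted p = 0.000385 with TMM and 0.00389 with cyclic loess). *Gpd1*, with the DR1 element printed above, had 7070 at ZT18 and 12063 at ZT6, with a ratio of 1.56. The wide peaks of *Lpin1*, a phosphatidate phosphatase, and *Gpam*, the mitochondrial glycerol-phosphate acyltransferase, had no cosine (ratios 1.18 and 1.23).

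Thermogenesis and fatty acid oxidation genes had 12 broad peaks at 10 of 26 genes, with 7 cosines under TMM, all in the light phase, and 4 under cyclic loess, 2 in each phase. Besides *Ucp1*, *Ucp3* was called under TMM, with 5121 at ZT18 and 7001 at ZT6, and *Adrb3*, with 4772 at ZT12 and 6860 at ZT6, had a fitted peak at 2.46 h under TMM that moved to 23.1 h, in the dark phase, under cyclic loess. *Hadhb*, a subunit of the mitochondrial trifunctional protein, had 5465 at ZT0 and 7209 at ZT6 and was not called. *Cox8b* varied by 4.13% and *Ppargc1a*, the coactivator of mitochondrial genes, by 8.86%, and neither had a cosine under TMM, while *Cox8b* had a dark-phase cosine under cyclic loess.

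Adipocyte transcription factors and coregulators had 22 broad peaks at 10 of 31 genes, with 10 cosines under TMM, all in the light phase, and 4 under cyclic loess. The whole-gene peak of *Cebpa* (chr7:35117347-35132058) had 12334, 15402, 15442, 14336, 13803, 11859, 11022 and 12784 normalized counts from ZT0 to ZT21 and was called under TMM (edgeR adjusted p = 0.00755) and not under cyclic loess (0.942 by the same test). Of the 3 broad peaks of *Ppara*, the receptor that drives fatty acid oxidation, that over its start (chr15:85731656-85738046) had 5797, 7153, 7815, 7665, 6808, 5458, 4301 and 5241, with a ratio of 1.71 and a fitted peak at 6.85 h (edgeR adjusted p = 0.000385), and the other two were not called. The 4 broad peaks of *Pparg* had densities of 179 to 496 per 1000 bases. The densest, over the start of a transcript (chr6:115417623-115428461), was the only 1 of them with a cosine under TMM, with 4604 at ZT18 and 6265 at ZT6, and it was not called under cyclic loess. The *Srebf1* peak of 8753 bases, at the gene of a lipogenic factor, had 5882 at ZT18 and 7914 at ZT6 and was called under TMM only. A peak of *Klf9*, a glucocorticoid-responsive factor, had 4954 at ZT18 and 9202 at ZT6 and was called under both.

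Circadian clock genes had 7 broad peaks at 6 of 21 genes, and 3 had a cosine under TMM, those of *Nr1d1*, *Per1* and *Bhlhe40*. JTK-cycle under TMM also called 3 of the 7 peaks, with *Nr1d1* among them and *Per1* not. *Per1*, a repressor of the clock, had 4665, 5056, 5862, 5958, 6179, 4297, 4501 and 4282 normalized counts from ZT0 to ZT21, highest at ZT12, with a fitted peak at 8.27 h (edgeR adjusted p = 0.00763). Its JTK-cycle adjusted P was 0.212 under TMM and 0.0260 under cyclic loess, where the cosine was near the threshold (edgeR adjusted p = 0.0473). *Bhlhe40* had 4823 at ZT18 and 6547 at ZT6. *Nfil3*, with a peak of 11817 bases, *Cry2* and both peaks of *Noct* had no cosine under TMM, and *Nfil3* and *Cry2* had a dark-phase cosine under cyclic loess.

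Genes of de novo lipogenesis, glucose uptake and insulin signalling had 14 broad peaks at 11 of 21 genes, with 9 cosines under TMM, all in the light phase, and 3 under cyclic loess. *Thrsp*, a lipogenic protein with a perfect DR1 element in its peak, had 6483, 7009, 7881, 6910, 7123, 5484, 5834 and 6218 normalized counts from ZT0 to ZT21 and was called under TMM (edgeR adjusted p = 0.0213) but not under library totals (0.0525 by the same test). The wide *Hk2* peak had 9362 at ZT18 and 12073 at ZT12 (ratio 1.26), and *Irs1*, an adaptor of the insulin receptor, had 5511 at ZT18 and 6898 at ZT6 and was not called. Of the 2 peaks of *Acacb*, the acetyl-CoA carboxylase of mitochondria, the wider had 6359 at ZT18 and 8797 at ZT12 and was called under TMM and totals, and the other had 3243 at ZT18 and 5486 at ZT6 and was called under TMM, totals and cyclic loess. Secreted factors had 4 broad peaks at 3 of 14 genes, *Adipoq*, *Vegfa* and *Nrg4*, and 2 of them, both of *Nrg4*, had a light-phase cosine under TMM, whereas the 2 called under cyclic loess, at *Adipoq* and *Nrg4*, were in the dark phase. The *Adipoq* peak, at the gene of adiponectin, had 5766 at ZT15 and 7103 at ZT6 and was called by JTK-cycle but not by the cosine (edgeR adjusted p = 0.0816).

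**Figure D5:**
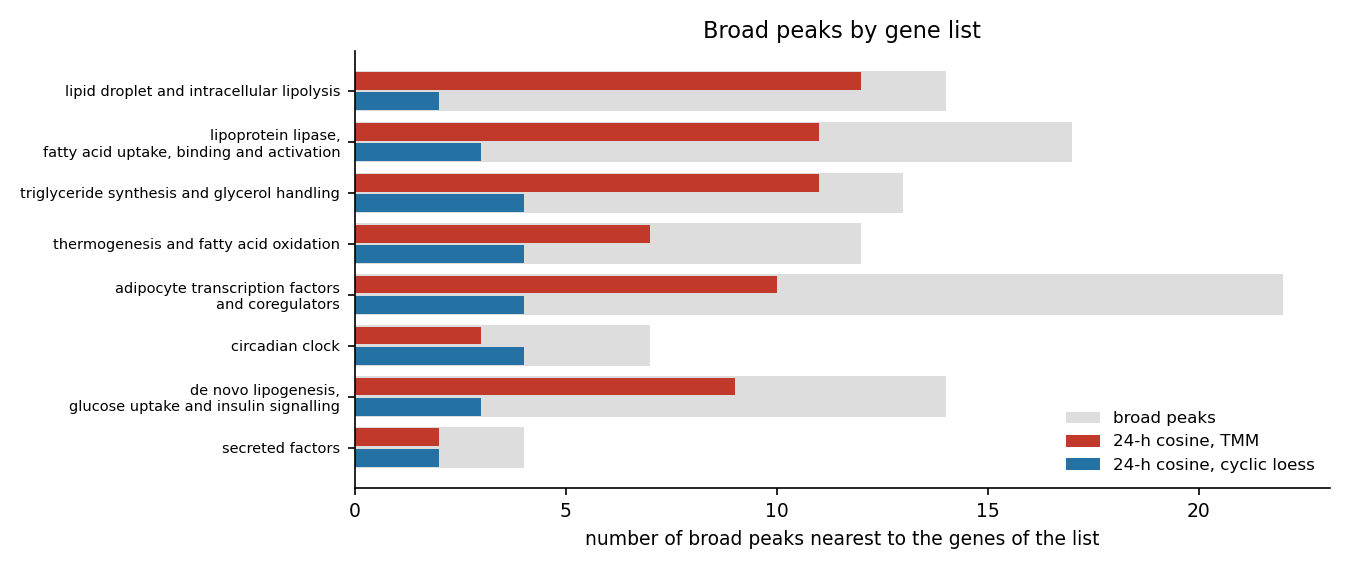
Number of broad peaks nearest to the genes of each adipocyte list (grey), and of those with a 24-h cosine (edgeR adjusted p under 0.05) under TMM (red) and under cyclic loess (blue). Lipid droplet and lipolysis genes go from 12 to 2 of 14 when cyclic loess replaces TMM, whereas circadian clock genes go from 3 to 4 of 7 and secreted factors stay at 2 of 4.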

How the data were processed

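The deposited table holds raw read counts per peak for 8 libraries, 1 per time point. Per the methods and the labels, the authors mapped reads to mm10 with BWA (version 0.7.17), called peaks with MACS2 (version 2.1.2) and counted reads with HTSeq (version 1.99.2). Their methods keep peaks significant in most libraries, and the table holds as many peaks as their analysis names. Broad or narrow calling and the treatment of duplicates are not given in the sources used here, and both bear on widths and counts. How the calls of the 8 libraries were joined into 1 set of intervals is not given either. A wide interval may therefore hold neighbouring calls that were joined. The input was not used, so no background was subtracted.

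Widths, positions, start sites (curated RefSeq transcripts of GRCm38), GC content, repeats and DR1 elements were computed for all 66066 peaks with Python (version 3.11.15). Counts were scaled with TMM in edgeR (version 4.0.16, R 4.3.3), and a 24-h cosine was fitted to all peaks with the quasi-likelihood test, leaving 5 residual degrees of freedom, with Benjamini-Hochberg adjustment. JTK-cycle used periods of 21 and 24 h, and its P was adjusted over 15 combinations within a peak. Fitted peaks before 12 h count as light phase. Library totals, DESeq2 size factors (version 1.42.0), upper-quartile factors and cyclic loess (limma version 3.58.1) were alternatives, and the scripts were tested on simulated data. The edgeR p-value tests the 24-h cosine against a flat course, with the departures of single pools from the cosine as the spread. The JTK-cycle P uses only the order of the libraries. Neither takes in the spread between mice.

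Named were the 10 widest and 10 densest members, the 5 called members with the largest and the 5 with the smallest amplitude, the 5 steadiest, genes with 3 or more broad peaks, the 3 peaks on either side of the width limit, and the 4 members of each list with the highest mean. Further genes of the lists and the dark-phase members were chosen after their values were seen. The members and the lists were chosen with earlier results of these data known.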

Additional observations from a re-analysis of the deposited data

How the results depend on the processing

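With cyclic loess in place of TMM, 138 broad peaks were called by JTK-cycle, 155 had a cosine, 42 of these in the light phase, and the summed count differed 1.07 times between the highest and lowest library, now ZT15 and ZT6. With library totals only, 167 members had a light-phase cosine and the summed count differed 1.13 times. That ratio was 1.23 with DESeq2 size factors, 1.21 with upper-quartile factors and 1.23 without the mitochondrial peaks, an alternative added after seeing the data. Leaving out 1 library at a time gave 163 to 251 members by JTK-cycle, 98 (without ZT18) to 305 with a cosine, 83 (without ZT18) to 265 with a light-phase cosine, and ratios of 1.17 to 1.22. A threshold of 0.01 left 100, 121 and 111 of the 748 members by JTK-cycle, cosine and light-phase cosine. Shares of all peaks are not given here for that threshold or for JTK-cycle without a library, so these counts have no background. A width of at least 4000 bases gave 391 by JTK-cycle and 567 with a cosine, and one of at least 6000 bases 132 and 194. The larger counts at 4000 bases are not higher rates. In the added peaks of 4 to 5 kb, JTK-cycle called 22.8% and the cosine 31.4%, against 27.9% and 42.2% of broad peaks. The share with a start site was 57.6% with all RefSeq transcripts, 44.9% at 4000 bases and 54.1% at 6000 bases. The share with a DR1 element was 2.55% with 0 mismatches, 73.2% with at most 2, 17.2% at 4000 bases and 23.7% at 6000 bases. The causes of these differences were not tested, apart from the smaller or larger number of peaks that the widths and thresholds take in. A DESeq2 likelihood ratio test (314 members) and a mean count of at least 100 (311) stayed within 1.5 times the main count with a cosine. Of 238 named broad peaks, 147 kept their side of the threshold under cyclic loess, 79 lost their call and 12 gained one, and under library totals these numbers were 200, 37 and 1. No paired analysis was possible because each time point has 1 library. The counting error of a median broad peak is 3.20% of its count, and the spread between mice, which it does not cover, was not measured.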
